A study of Homo sapiens with 8 samples.

Results

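The DUSP and Sprouty genes described here encode inhibitors of the MAP kinases, and 10 of them were taken by symbol from a table of 23354 genes: DUSP1, DUSP2, DUSP4, DUSP5, DUSP6, DUSP8, DUSP10, SPRY2, SPRY4 and SPRED1. The rule itself used only the symbol, but these 10 genes were chosen with earlier results of these data known. All 10 passed the filter on low counts, which kept 15564 genes for testing. Their RNA was sequenced in mesenchymal stromal cells made from the established human embryonic stem cell line H9, in 8 libraries that each stand for a different condition. The labels call the cells H9-iMSC, and they were used between passages 8 and 12 after growth on gelatin. The 3 osmolyte-frozen libraries came from cells frozen without DMSO in solutions labelled SMC, SGC and SGI, cooled at 3 °C per min, after a hold of 2 h in SMC and of 1 h in SGC and SGI. The 2 DMSO-frozen libraries came from cells frozen in DMSO, the usual cryoprotectant, at 1 °C per min after a hold of 0 h or 1 h. The 3 fresh libraries came from cells that were not frozen, taken at once (0 h), held 1 h in medium or held 1 h with DMSO. All frozen cells were thawed before RNA was isolated. Solution and cooling rate cannot be told apart among the frozen cells, and no fresh library held an osmolyte solution. Nothing in the labels says that libraries came from separate cultures, so p-values measure only the spread between these libraries, which differ in condition and may differ technically.

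MAP kinases carry signals from growth factor receptors and from stress to the nucleus, where they switch on genes. Many of the genes switched on by the kinase ERK encode its own inhibitors, so that a signal is followed by feedback. The DUSP proteins are phosphatases that remove phosphate from the threonine and tyrosine residues that keep a MAP kinase active. Sprouty and SPRED proteins act further up, between the receptor and the kinase RAF. In stromal cells, receptors for platelet-derived, fibroblast and epidermal growth factors feed this pathway. RNA levels say nothing directly about kinase or phosphatase activity.

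Counts summed to between 41198716 and 51166666 per library. The counts made up 64.0% to 66.9% of the library total behind the deposited RPKM values in osmolyte-frozen cells, 72.1% to 73.0% in DMSO-frozen cells and 66.2% to 70.4% in fresh cells. All 7 mesenchymal stromal markers examined were at 10 CPM (the count scaled to a common library size) or more in every library. In osmolyte-frozen against DMSO-frozen cells, 1 of these 7 was higher and 4 were lower by edgeR, where 13.6% of all genes were higher and 16.5% lower. Against fresh cells all 7 passed in osmolyte-frozen cells, 2 higher and 5 lower, among them CD44 at 2.07-fold lower, where 19.1% of all genes were higher and 21.0% lower. In DMSO-frozen against fresh cells 1 of the 7 was lower, where 1.25% of all genes were higher and 0.617% lower. With DMSO against without, 3 of the 7 were higher, where 9.33% of all genes were higher and 6.91% lower. Of 6 blood markers, 5 stayed under 1 CPM in every library, and the list summed to 2.39 to 2.84 CPM in osmolyte-frozen, 2.01 to 2.13 CPM in DMSO-frozen and 2.01 to 2.43 CPM in fresh cells. The 4 endothelial markers summed to 2.33 to 3.30 CPM over all libraries, and the epithelial sum of 1210 to 1533 CPM was nearly all from the keratins KRT8 and KRT18. The 6 pluripotency markers summed to 10.5 to 13.8 CPM in osmolyte-frozen, 6.86 to 7.38 CPM in DMSO-frozen and 7.32 to 8.59 CPM in fresh cells, and none of the 6 reached 10 CPM in every library. The nuclear-retained RNAs MALAT1 and NEAT1 summed to 8378 to 9148 CPM in osmolyte-frozen, 4064 to 4556 CPM in DMSO-frozen and 4703 to 5668 CPM in fresh cells. The share of counted reads, the stromal markers, the pluripotency sum and the nuclear-retained sum thus moved with freezing solution, and their part in the results below was not tested. In a mixed sample, fewer cells of a type and less RNA per cell cannot be told apart.

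DUSP1 was by far the most abundant of the genes per length, at a mean of 65.2 RPKM over the 8 libraries, as the authors computed it. SPRED1 followed at 5.97 RPKM, DUSP5 at 4.55, SPRY2 at 4.32, DUSP4 at 4.10 and DUSP6 at 3.63 RPKM. SPRY4 averaged 1.86 RPKM and DUSP8 1.40 RPKM, while DUSP2 at 0.819 RPKM and DUSP10 at 0.288 RPKM were the rarest. The middle of this order is not firm, since the DUSP5 range of 3.08 to 10.5 RPKM and the DUSP6 range of 0.923 to 7.12 RPKM each cover the mean levels of SPRY2 and DUSP4. How much a gene varied between libraries did not follow its level. The SD of log2 CPM over the 8 libraries was 1.17 for DUSP1, 1.05 for DUSP2 and 0.98 for DUSP6, and these values lay above those of 99.7%, 99.7% and 99.6% of the 10700 genes that averaged at least 5 CPM. DUSP5 followed with an SD of 0.61. SPRY4, with an SD of 0.13, lay above only 33.4% of the same genes, and SPRED1 at 0.21 and DUSP4 at 0.21 were in between. For the rare DUSP2 and DUSP10 the counting error is larger than for most genes of that set.

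**Figure D1:**
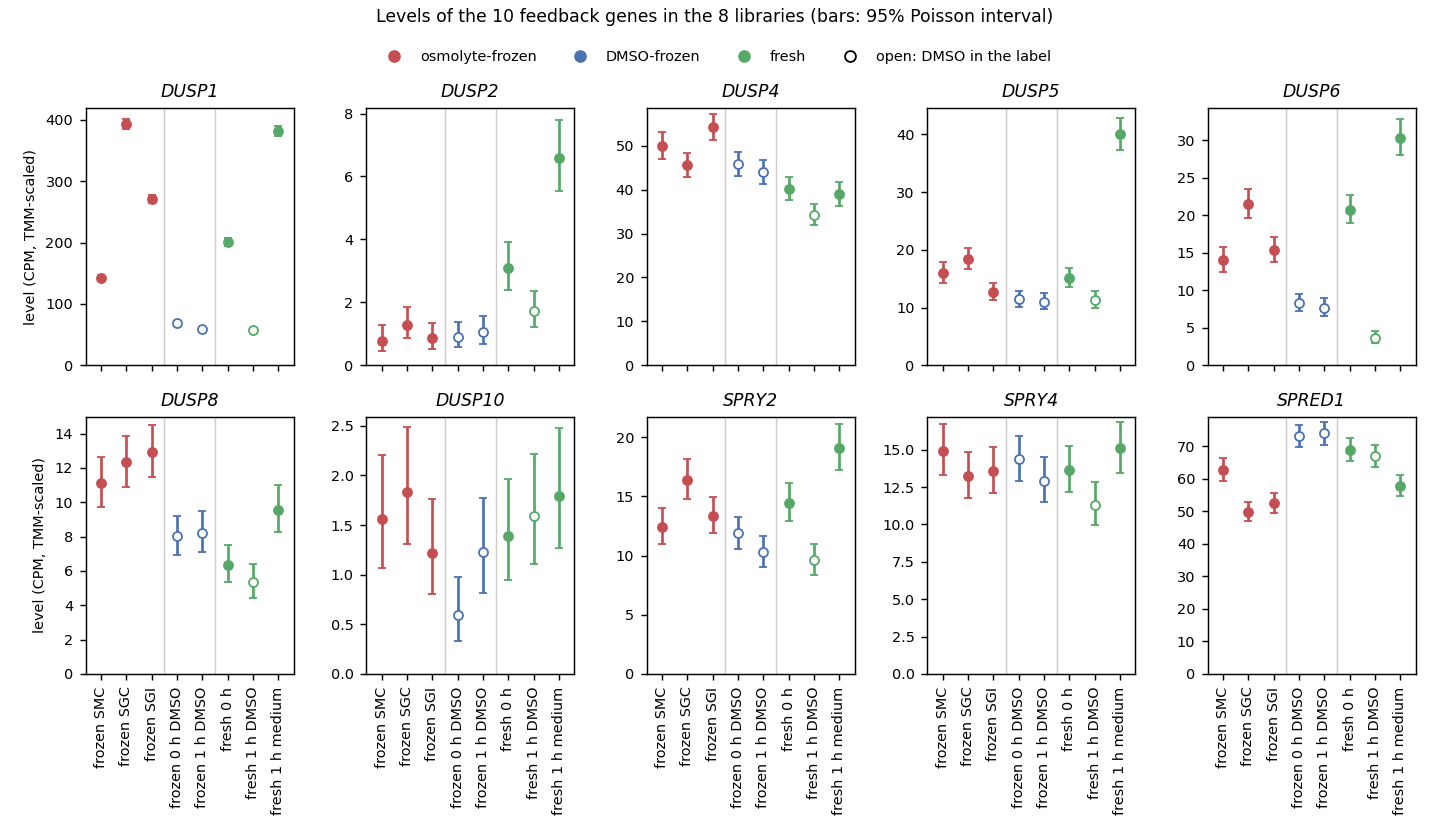
Levels of the 10 genes in CPM on linear axes that start at 0, with 1 point per library in the colour of its group, open where the label names DMSO, and bars for the exact 95% Poisson interval of counting error. DUSP1, DUSP2, DUSP5 and DUSP6 spread widely among the fresh libraries, whereas SPRY4 stayed between 11.3 and 15.1 CPM throughout.

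The promoters of DUSP1, DUSP8 and DUSP6 are shown because DUSP1 and DUSP6 were the pair of well-expressed genes that varied most between libraries, and DUSP8 because its window held the same element as that of DUSP1. The sequences are from RefSeq in build GRCh38.p14, whose coordinates differ from the hg19 positions of the deposited table, and give the 250 bases before each annotated start. They are read 5′ to 3′ on the gene's own strand, and capitals mark the letters TGACGTCA, known as a cyclic AMP response element (CRE), which factors of the CREB and ATF family bind.
DUSP1 promoter, chr5:172771196-172771445, minus strand: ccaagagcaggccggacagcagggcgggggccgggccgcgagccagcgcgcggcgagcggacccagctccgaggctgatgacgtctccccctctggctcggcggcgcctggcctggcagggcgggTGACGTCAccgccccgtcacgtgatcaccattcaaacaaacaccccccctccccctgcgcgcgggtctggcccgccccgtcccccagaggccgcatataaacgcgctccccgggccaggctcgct
DUSP8 promoter, chr11:1572272-1572521, minus strand: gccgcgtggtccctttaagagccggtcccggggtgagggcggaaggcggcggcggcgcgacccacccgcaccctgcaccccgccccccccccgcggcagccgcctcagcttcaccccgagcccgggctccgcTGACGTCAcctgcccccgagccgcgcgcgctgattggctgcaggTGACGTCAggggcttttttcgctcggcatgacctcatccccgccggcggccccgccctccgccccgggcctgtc
DUSP6 promoter, chr12:89352502-89352751, minus strand: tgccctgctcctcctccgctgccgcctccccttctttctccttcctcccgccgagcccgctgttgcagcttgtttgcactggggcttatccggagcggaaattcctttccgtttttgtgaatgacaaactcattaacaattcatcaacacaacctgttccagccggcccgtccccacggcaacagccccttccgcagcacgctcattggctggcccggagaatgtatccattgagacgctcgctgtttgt
In the search window of 300 bases, from 250 before to 50 after the start, DUSP1 held 1 such element, at positions -125 to -118 from the start. DUSP8 held 2, at -118 to -111 and at -74 to -67. DUSP6 held none of the motifs searched. SPRY2 held no TGACGTCA at any of its 3 annotated starts. Any link of this element to the differences between libraries was not tested. Both strands were searched for TGACGTCA, the variant TGACGCAA, the AP-1 motif TGANTCA, the EGR motif GCGTGGGCG and the CArG box that serum response factor binds. Of 35116 promoters of the same length, 1.85% held TGACGTCA, 0.513% TGACGCAA, 7.71% TGANTCA, 0.795% GCGTGGGCG and 1.29% the CArG box. Promoters of 8 of the 10 genes were searched, not those of DUSP4 and DUSP5, and no other motif was found in any of the 8. These matches describe letters in a window and do not show that a factor was bound.

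DUSP1, a nuclear phosphatase of p38, JNK and ERK whose RNA is made within minutes of a stimulus, was low in every library with DMSO. It measured 142, 393 and 271 CPM after freezing in SMC, SGC and SGI, against 69.3 and 58.8 CPM after freezing in DMSO at 0 h and 1 h. Fresh cells had 57.3 CPM after 1 h with DMSO, 382 CPM after 1 h in medium and 201 CPM at 0 h. The 3 libraries with DMSO were thus the 3 lowest and lay within 57.3 to 69.3 CPM, whether frozen or not. The gene lies on chromosome 5 from 172195093 to 172198203 in hg19.

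DUSP2, a nuclear phosphatase of ERK and p38 best known from immune cells, had a different pattern: it was highest in fresh cells. Osmolyte-frozen cells had 0.783, 1.295 and 0.870 CPM in SMC, SGC and SGI, and DMSO-frozen cells had 0.907 CPM at 0 h and 1.05 CPM at 1 h. Fresh cells had 1.73 CPM after 1 h with DMSO, 6.60 CPM after 1 h in medium and 3.09 CPM at 0 h. Every frozen library, with or without DMSO, lay below every fresh one, and among fresh cells the library with DMSO was the lowest. The 95% counting interval of that fresh library, 1.22 to 2.37 CPM, overlapped those of all frozen libraries, such as SGC at 0.867 to 1.86 CPM.

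DUSP5, a nuclear phosphatase specific for ERK, was highest in fresh cells in medium. It measured 16.0, 18.4 and 12.7 CPM in SMC, SGC and SGI, 11.4 and 11.02 CPM in DMSO-frozen cells at 0 h and 1 h, and 11.4, 40.1 and 15.1 CPM in fresh cells after 1 h with DMSO, after 1 h in medium and at 0 h. The 3 libraries with DMSO were again the 3 lowest. DUSP4, the remaining nuclear phosphatase of the set, had a narrow range. Its levels were 50.01, 45.6 and 54.2 CPM in SMC, SGC and SGI, 45.8 and 44.0 CPM in DMSO-frozen cells at 0 h and 1 h, and 34.3, 39.0 and 40.2 CPM in fresh cells after 1 h with DMSO, after 1 h in medium and at 0 h. All 5 frozen libraries lay above the 3 fresh ones.

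DUSP6, the cytoplasmic phosphatase specific for ERK and a common readout of ERK activity, reached its lowest level in fresh cells with DMSO. It measured 14.0, 21.5 and 15.4 CPM in SMC, SGC and SGI, against 8.28 and 7.69 CPM in DMSO-frozen cells at 0 h and 1 h. Fresh cells had 3.68 CPM after 1 h with DMSO, 30.3 CPM after 1 h in medium and 20.8 CPM at 0 h. As for DUSP1, the 3 libraries with DMSO were the 3 lowest, but the fresh one stood below the pair of frozen ones. DUSP6 lies on chromosome 12 from 89741837 to 89746296 in hg19.

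The phosphatases that act mainly on JNK and p38 are DUSP8 and DUSP10. DUSP8 measured 11.1, 12.3 and 12.9 CPM in SMC, SGC and SGI, 8.01 and 8.22 CPM in DMSO-frozen cells at 0 h and 1 h, and 5.37, 9.56 and 6.35 CPM in fresh cells after 1 h with DMSO, after 1 h in medium and at 0 h. The 3 osmolyte-frozen libraries were the 3 highest, and fresh cells in medium came next. DUSP10 had 1.57, 1.83 and 1.22 CPM in SMC, SGC and SGI, 0.592 and 1.22 CPM in DMSO-frozen cells at 0 h and 1 h, and 1.59, 1.80 and 1.39 CPM in fresh cells after 1 h with DMSO, after 1 h in medium and at 0 h. Its 2 DMSO-frozen libraries lay below the fresh ones, but the SGI library was as low as the higher of them.

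SPRY2, which blocks signalling from receptor tyrosine kinases to ERK, followed DUSP6 with a smaller range. It measured 12.4, 16.4 and 13.4 CPM in SMC, SGC and SGI, 11.9 and 10.3 CPM in DMSO-frozen cells at 0 h and 1 h, and 9.597, 19.1 and 14.5 CPM in fresh cells after 1 h with DMSO, after 1 h in medium and at 0 h. The 3 libraries with DMSO were the 3 lowest. SPRY4, its close relative, had 14.9, 13.3 and 13.6 CPM in SMC, SGC and SGI, 14.4 and 12.9 CPM in DMSO-frozen cells at 0 h and 1 h, and 11.3, 15.1 and 13.7 CPM in fresh cells after 1 h with DMSO, after 1 h in medium and at 0 h. Its groups overlapped. SPRED1, which recruits the RAS inhibitor neurofibromin to the membrane, was not low with DMSO. It measured 62.8, 49.9 and 52.5 CPM in SMC, SGC and SGI, 73.1 and 74.0 CPM in DMSO-frozen cells at 0 h and 1 h, and 67.0, 57.9 and 69.0 CPM in fresh cells after 1 h with DMSO, after 1 h in medium and at 0 h. Its highest libraries were the 2 frozen in DMSO.

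**Figure D2:**
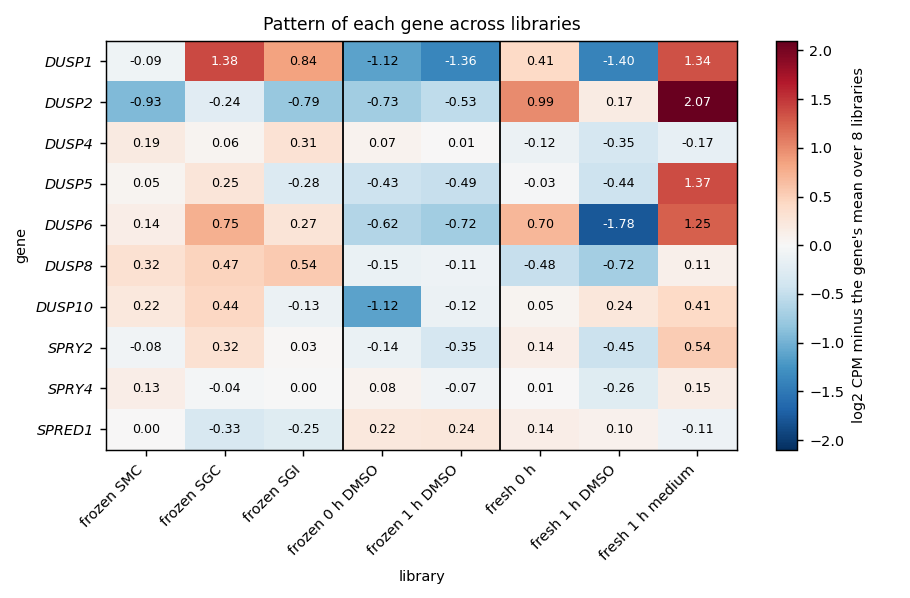
Difference of each gene's log2 CPM in each library from that gene's own mean over the 8 libraries, with values printed in the cells, genes in rows and libraries in columns from osmolyte-frozen through DMSO-frozen to fresh. DUSP1, DUSP5, DUSP6, DUSP8 and SPRY2 were below their means in all 3 libraries with DMSO, and SPRED1 was above its mean in the same 3. All of those lower genes but DUSP6 were also below their means in some library without DMSO. SPRED1 was also above its mean in fresh cells at 0 h (0.14) and marginally in SMC (0.003), both without DMSO.

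Setting osmolyte-frozen against DMSO-frozen cells asks how the genes differ after freezing in the experimental solutions and in the usual one. DUSP8 was higher by 1.495-fold after freezing in osmolytes, at 12.1 ± 0.925 CPM (n = 3, SD) against 8.11 ± 0.150 CPM (n = 2, SD) in DMSO-frozen cells. SPRED1 was lower, at 55.1 ± 6.82 CPM (n = 3, SD) against 73.5 ± 0.596 CPM (n = 2, SD). By edgeR's quasi-likelihood test, adjusted by Benjamini-Hochberg over all genes tested, log2 fold changes were 0.58 (SE 0.18, adjusted p = 0.0268) for DUSP8 and -0.42 (SE 0.10, adjusted p = 0.00415) for SPRED1. These were the only 2 of the 10 past the threshold of 0.05, 1 higher and 1 lower, where 13.6% of all genes were higher and 16.5% lower (30.1% together), so the share of these genes is near or below that of all genes. DUSP1 averaged 269 ± 126 CPM (n = 3, SD) in osmolyte-frozen and 64.0 ± 7.46 CPM (n = 2, SD) in DMSO-frozen cells, a log2 difference of 2.07 (SE 0.91) that missed the threshold by edgeR (adjusted p = 0.154). DUSP6 averaged 17.0 ± 3.98 CPM (n = 3, SD) in osmolyte-frozen and 7.99 ± 0.416 CPM (n = 2, SD) in DMSO-frozen cells, a log2 difference of 1.09 (SE 0.84, edgeR adjusted p = 0.389). The osmolyte-frozen libraries lay wholly above the DMSO-frozen ones for DUSP1, DUSP5, DUSP6, DUSP8 and SPRY2, and wholly below for SPRED1, against 29.1% of all genes wholly above and 27.7% wholly below. The median log2 difference was 0.41 over the 10 genes and 0.04 over all genes tested.

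The spread that this test uses includes that of the fresh libraries, which was wide for several of these genes. With the 5 frozen libraries fitted alone, 5 of the 10 passed by edgeR, where 16.7% of the genes then tested were higher and 18.5% lower. DUSP6 (adjusted p = 7.02e-05), DUSP8 (adjusted p = 0.00102), DUSP5 (adjusted p = 0.00726) and SPRY2 (adjusted p = 0.0395) were higher in osmolyte-frozen cells in that edgeR fit, and SPRED1 was lower (adjusted p = 0.00133). DUSP1 had adjusted p = 0.0780 there, and passed in the main comparison when edgeR's robust estimation was turned off (adjusted p = 0.0116) or with DESeq2 (adjusted p = 0.0233). The call of DUSP8 was lost by edgeR without SGC (adjusted p = 0.0674), without SGI (0.0869), without the DMSO-frozen library at 1 h (0.120), without that at 0 h (0.173) and with hold time as a term (0.104). In the fit of 3 groups other genes passed on leaving out 1 library: DUSP6 without fresh cells with DMSO (edgeR adjusted p = 0.00564), DUSP5 without fresh cells in medium (0.0218) and DUSP10 without the DMSO-frozen library at 1 h (0.0234).

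Osmolyte-frozen cells were also set against fresh cells. DUSP4 was 1.32-fold higher after freezing in osmolytes, at 49.9 ± 4.31 CPM against 37.8 ± 3.10 CPM (n = 3 each, SD), and DUSP8 was 1.71-fold higher, averaging 12.1 ± 0.925 CPM against 7.09 ± 2.19 CPM (n = 3 each, SD). DUSP2 was 3.84-fold lower, averaging 0.983 ± 0.274 CPM against 3.80 ± 2.51 CPM (n = 3 each, SD). By edgeR log2 fold changes were 0.40 (SE 0.08, adjusted p = 0.000797) for DUSP4, 0.78 (SE 0.16, adjusted p = 0.00161) for DUSP8 and -1.94 (SE 0.47, adjusted p = 0.0103) for DUSP2. SPRED1, at -0.23 (SE 0.09), passed by edgeR with little to spare (adjusted p = 0.0476). Its call was lost by edgeR with hold time as a term (adjusted p = 0.111), upper quartile scaling (0.105) and library totals (0.0598). It was also lost with robust estimation off (0.0578), counts halved (0.0534) and only the groups compared (0.0643). Leaving out any single one of 6 of the 8 libraries lost it too, at log2 differences of -0.23 to -0.16. Thus 2 genes were higher and 2 lower, where 19.1% of all genes were higher and 21.0% lower (40.1% together). The share of these genes that passed is therefore near that of all genes. DUSP4 and DUSP8 lay wholly above and DUSP2 wholly below the fresh libraries, against 24.8% of all genes in each direction. In neither direction did the share of these genes exceed that of all genes. Without fresh cells in medium, the library with the most DUSP2, its log2 difference was -1.29. Without SMC, edgeR gave DUSP2 adjusted p = 0.0618, and without SGI 0.0563. DUSP1 averaged 269 ± 126 CPM in osmolyte-frozen cells and 213 ± 163 CPM in fresh cells (n = 3 each, SD), a log2 difference of 0.33 (SE 0.75, edgeR adjusted p = 0.760) that turned negative without fresh cells with DMSO (-0.12) or without SGC (-0.04).

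In DMSO-frozen against fresh cells, none of the 10 genes passed by edgeR, where 1.25% of all genes were higher and 0.617% lower (1.87% together). DUSP2, DUSP4 and DUSP10 had unadjusted p under 0.05, 3 of the 10 by edgeR. The share of all genes at that looser threshold is not given here, so this count cannot be judged against it. DESeq2 called 1, DUSP2 (adjusted p = 0.0406), where it called 2.39% of genes higher and 1.21% lower. With edgeR's robust estimation off, DUSP2 passed as well (adjusted p = 0.0392). DUSP2 averaged 0.978 ± 0.100 CPM (n = 2, SD) in DMSO-frozen and 3.80 ± 2.51 CPM (n = 3, SD) in fresh cells, a log2 difference of -1.95 (SE 0.54, edgeR adjusted p = 0.148). DUSP1 averaged 64.0 ± 7.46 CPM (n = 2, SD) in DMSO-frozen and 213 ± 163 CPM (n = 3, SD) in fresh cells, at -1.74 (SE 0.89, edgeR adjusted p = 0.507). One of the fresh libraries held DMSO. Without it, edgeR called 2 of the 10 lower in DMSO-frozen cells, DUSP2 at -2.30 (adjusted p = 0.000997) and DUSP6 at -1.68 (adjusted p = 0.00841), where 1.03% of the genes tested were higher and 0.629% lower. DUSP2 and DUSP10 lay wholly below the fresh libraries and DUSP4 and SPRED1 wholly above, against 15.4% of all genes below and 16.0% above.

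Libraries with and without DMSO were compared across both states, with freezing as a term in the fit. DUSP1 was 4.49-fold lower with DMSO, at 61.8 ± 6.54 CPM (n = 3, SD) with DMSO against 278 ± 110 CPM (n = 5, SD) without. SPRY2 was 1.42-fold lower, averaging 10.6 ± 1.17 CPM (n = 3, SD) with DMSO against 15.2 ± 2.66 CPM (n = 5, SD) without, and DUSP8 was 1.49-fold lower, averaging 7.20 ± 1.59 CPM (n = 3, SD) with DMSO against 10.5 ± 2.63 CPM (n = 5, SD) without. SPRED1 was 1.23-fold higher, averaging 71.3 ± 3.83 CPM (n = 3, SD) with DMSO against 58.4 ± 7.73 CPM (n = 5, SD) without. By edgeR log2 fold changes were -2.17 (SE 0.43, adjusted p = 0.0315) for DUSP1, -0.50 (SE 0.13, adjusted p = 0.0215) for SPRY2, -0.57 (SE 0.13, adjusted p = 0.0114) for DUSP8 and 0.30 (SE 0.10, adjusted p = 0.0439) for SPRED1. These were 3 of the 10 lower and 1 higher, where 6.91% of all genes were lower and 9.33% higher (16.2% together). DUSP6 averaged 6.55 ± 2.502 CPM (n = 3, SD) with DMSO and 20.4 ± 6.44 CPM (n = 5, SD) without. Its log2 difference of -1.60 (SE 0.41) missed the threshold by edgeR (adjusted p = 0.0552) and passed with DESeq2 (adjusted p = 0.00116). It also passed by edgeR with upper quartile scaling (adjusted p = 0.0475), with robust estimation off (0.0079) and with counts halved (0.0460). All libraries with DMSO lay below all those without for DUSP1, DUSP5, DUSP6 and SPRY2, 4 of the 10 against 4.94% of all genes. None of the 10 lay wholly above, against 5.92% of all genes. For DUSP5 and SPRY2 the gap was within counting error. The 95% intervals for DUSP5 were 10.16 to 12.83 CPM in DMSO-frozen cells at 0 h and 11.29 to 14.25 CPM in SGI. Those for SPRY2 were 10.57 to 13.29 CPM in DMSO-frozen cells at 0 h and 10.95 to 14.06 CPM in SMC. The median log2 difference was -0.54 over the 10 genes and -0.03 over all genes tested.

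Those 4 calls depended on which libraries and terms were in the fit. With hold time as a term, edgeR no longer called DUSP1, at -2.12 (adjusted p = 0.0642). SPRED1 lost its call with upper quartile scaling (edgeR adjusted p = 0.0510) and with robust estimation off (0.0512). Without the DMSO-frozen library at 1 h, or without that at 0 h, none of the 10 passed by edgeR, and only 25 and 17 genes were called in all, against 2527 with every library. Without SGC 1 of the 10 passed and without SGI 2, where edgeR called 875 and 691 genes. Without fresh cells with DMSO, where the comparison becomes one of DMSO-frozen with osmolyte-frozen cells, 4648 genes were called, and DUSP6 passed (adjusted p = 0.00564 by edgeR) while DUSP1 did not (0.0681). The log2 fold change of DUSP1 stayed between -2.27 and -1.95 across these omissions.

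**Figure D3:**
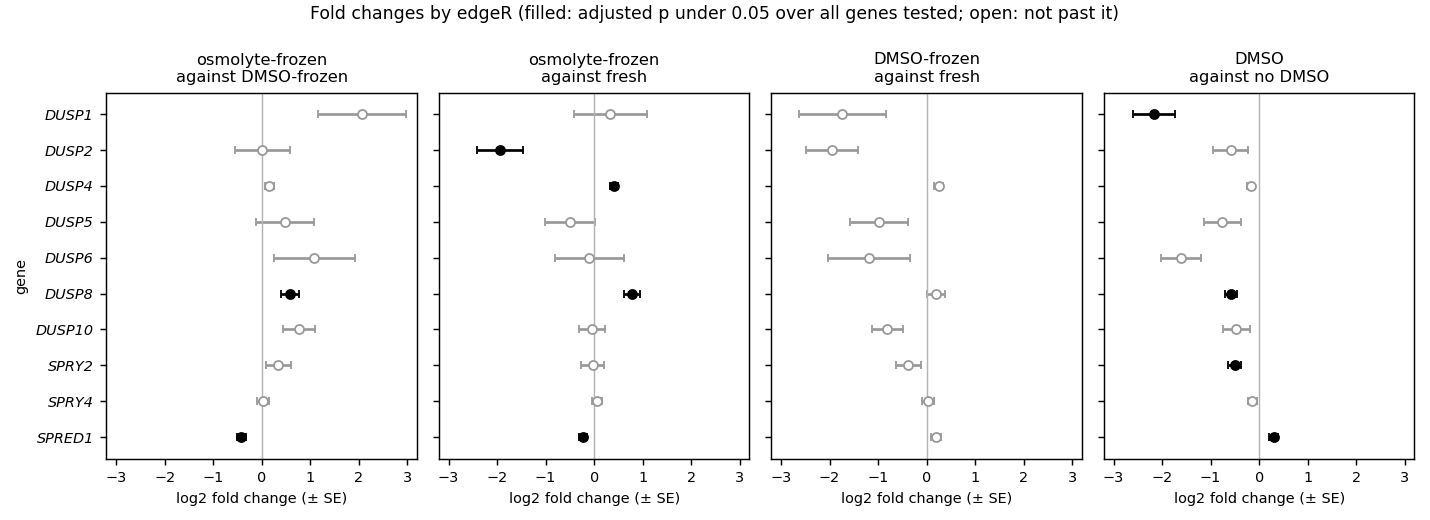
Log2 fold changes of the 10 genes in the 4 tested comparisons, with bars of 1 SE and filled points where edgeR's adjusted p was under 0.05. The bars of DUSP1 and DUSP6 are the longest in the 3 comparisons of groups, and in the DMSO comparison DUSP1 lies at -2.17 and SPRED1 at 0.30.

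Whether the difference with DMSO was the same in frozen and fresh cells was tested as an interaction, which was added after the data were seen. Of all genes, 2.81% were called. DUSP6 had an interaction of 1.71 on the log2 scale (SE 0.38, edgeR adjusted p = 0.0489), the only one of the 10 past the threshold. That call was lost by edgeR under 8 alternatives, with adjusted p between 0.0508 and 0.201: DESeq2 size factors, library totals, upper quartile scaling, no filter, counts halved, and without SGI or either DMSO-frozen library. Without fresh cells at 0 h DUSP2 passed as well, at 1.94 (edgeR adjusted p = 0.0198), against 0.162 with every library. The level of DUSP6 with DMSO was 8.28 and 7.69 CPM in frozen cells, against 14.0 to 21.5 CPM in frozen cells without, and 3.68 CPM in fresh cells, against 20.8 and 30.3 CPM in fresh cells without. For DUSP1 the interaction was 0.28 (SE 0.92, edgeR adjusted p = 0.928), an error too wide to tell whether frozen and fresh cells were alike. The fresh arm with DMSO is a single library, and among frozen cells DMSO goes with cooling rate.

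Pairs of single libraries carry no replicates, so for them ratios of CPM are given with exact intervals of 95% that cover counting error only. Genes were counted as apart from 2-fold upwards, where the higher library had 50 or more counts. After 1 h, fresh cells with DMSO had less DUSP6 than fresh cells in medium, 3.68 against 30.3 CPM, which is 8.23-fold lower (interval 6.52 to 10.5). DUSP1 was 6.67-fold lower (6.28 to 7.08), DUSP2 3.82-fold lower (2.65 to 5.62) and DUSP5 3.52-fold lower (3.06 to 4.08). These were 4 of the 10, where 0.769% of all genes were lower and 0.466% higher by the same measure. SPRY2 came next, at 1.99-fold lower (1.68 to 2.37), and SPRED1 was the only one of the 10 with more RNA in the library with DMSO, at 67.0 against 57.9 CPM.

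Set against fresh cells at 0 h, the library after 1 h in medium and the library after 1 h with DMSO moved apart. After 1 h in medium DUSP5 was 2.65-fold higher (2.33 to 3.02) and DUSP2 2.14-fold higher (1.59 to 2.90) than at 0 h, 2 of the 10 where 0.417% of all genes were higher. DUSP1 was 1.901-fold higher (1.83 to 1.97), DUSP8 1.504-fold and DUSP6 1.46-fold (1.29 to 1.65), all short of 2-fold. After 1 h with DMSO, DUSP6 was 5.64-fold lower (4.44 to 7.23) and DUSP1 3.51-fold lower (3.29 to 3.73) than at 0 h, 2 of the 10 where 0.493% of all genes were lower and 0.223% higher. DUSP5 was 1.33-fold lower (1.13 to 1.57) in that pair. DUSP2 was 1.79-fold lower (1.185 to 2.73) and SPRY2 1.51-fold lower (1.26 to 1.80) there, and SPRY2 was 1.32-fold higher (1.14 to 1.54) in medium than at 0 h. For DUSP1, DUSP2, DUSP6 and SPRY2 the 1 h libraries thus differed by a higher level in medium as well as a lower one with DMSO. DUSP5 was mainly high in medium.

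With 1 h and DMSO on both sides, frozen and fresh cells were within 2-fold of each other for all of these genes but DUSP6. DUSP1 stood at 58.8 CPM in frozen and 57.3 CPM in fresh cells, a ratio of 1.03 (0.949 to 1.11), and DUSP5 at 11.02 CPM in frozen and 11.4 CPM in fresh cells. DUSP6 was 2.09-fold higher in frozen cells (1.60 to 2.75), the only one of the 10, where 0.624% of all genes were higher and 0.378% lower. At 0 h, cells frozen in DMSO had less DUSP2 than fresh cells, 3.40-fold lower (2.096 to 5.72), less DUSP1, 2.90-fold lower (2.74 to 3.07), less DUSP6, 2.51-fold lower (2.13 to 2.97), and less DUSP10, 2.35-fold lower (1.23 to 4.67). These were 4 of the 10, where 0.695% of all genes were lower, and here DMSO and freezing cannot be told apart. Cells frozen in DMSO after 1 h and after 0 h differed by less than 2-fold in all 10 genes, with a prior count of 2 added, where 0.237% of all genes were higher and 0.153% lower at 1 h, and the DUSP1 ratio was 0.848 (0.789 to 0.911). DUSP10, with few reads, was closest to the limit, at a ratio of 1.99 with the prior count and a plain ratio of 2.07 (1.07 to 4.17).

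Among the osmolyte solutions, SGC and SGI were both held for 1 h and can be set against each other. DUSP1 was 1.45-fold higher in SGC than in SGI (1.41 to 1.499), DUSP5 1.45-fold (1.24 to 1.69) and DUSP6 1.39-fold (1.21 to 1.60), and none of the 10 reached 2-fold, where 0.120% of all genes were higher and 0.389% lower. SMC was held for 2 h, so its values stand beside the others without a matched comparison: DUSP1 was at 142 CPM in SMC, 393 CPM in SGC and 271 CPM in SGI. These pairs differ in hold time as well as solution. DUSP1 alone of the 10 was 2-fold or more lower in SMC than in SGC, and none of the 10 was apart between SMC and SGI. Of all genes, 0.363% were higher and 0.551% lower in SMC than in SGC, and 0.240% were higher and 0.891% lower in SMC than in SGI. Of the osmolyte-frozen libraries SMC also had the least DUSP6 and SPRY2 and the most SPRED1.

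**Figure D4:**
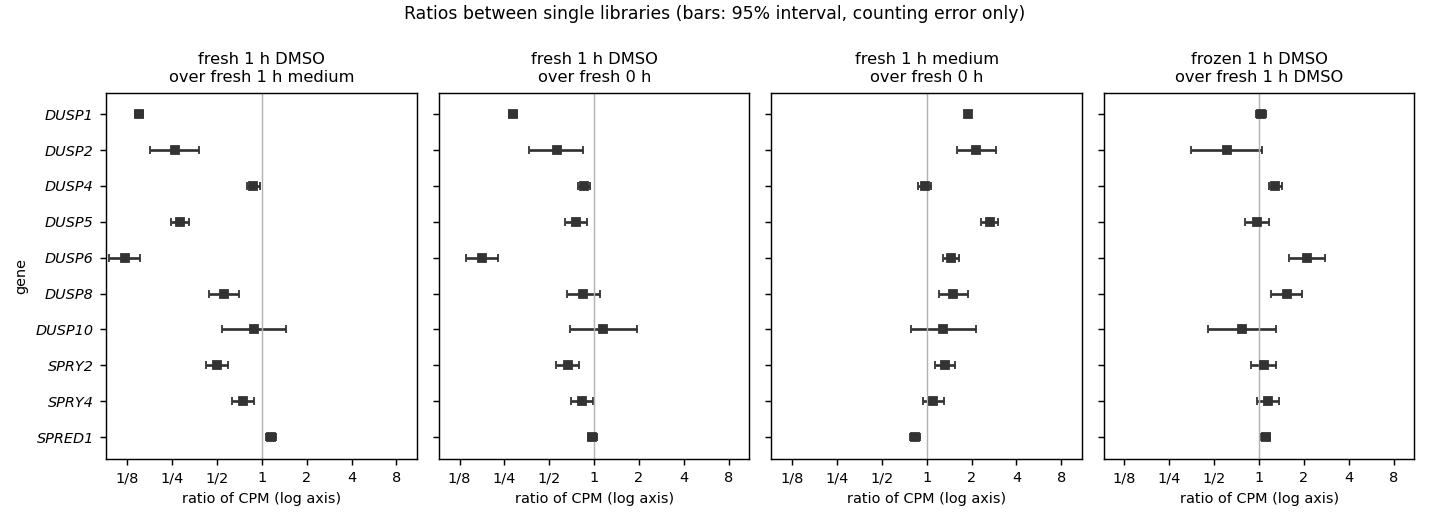
Ratios of CPM of the 10 genes in 4 pairs of single libraries on a log axis (squares), with 95% intervals for counting error only. DUSP6 and DUSP1 lie farthest to the left in fresh cells with DMSO over medium, at 8.23-fold and 6.67-fold lower, and in frozen over fresh cells with DMSO the DUSP1 ratio is 1.03.

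The genes most like DUSP1 and DUSP6 over the 8 libraries were sought among 10692 genes that averaged at least 5 CPM. Likeness was the root mean square difference between log2 profiles, each centred on its own mean. For DUSP6 the closest was KLF2, a Kruppel-like transcription factor, at 0.21, followed by the immediate early gene IER2 at 0.40, LOC100652768 at 0.42, the AP-1 subunit JUNB at 0.42 and KLF6 at 0.43, where the median over all candidates was 0.94. KLF2 measured 16.7, 23.7 and 18.8 CPM in SMC, SGC and SGI, 11.1 and 10.6 CPM in DMSO-frozen cells at 0 h and 1 h, and 6.78, 40.8 and 24.8 CPM in fresh cells after 1 h with DMSO, after 1 h in medium and at 0 h. For DUSP1 the closest were ZFP36, which encodes an RNA-destabilising protein, at 0.42, JUNB at 0.47, KLF2 at 0.51, the cytokine LIF at 0.51 and KLF6 at 0.52, with a median over all candidates of 1.12. ZFP36 stood at 20.8 CPM in fresh cells with DMSO after 1 h, against 219 CPM in fresh cells in medium.

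The rest of the pathway was taken from lists by role, and all its calls are by edgeR beside the shares of all genes given above. Counts at unadjusted p under 0.05 have no such share beside them. The calls of the DMSO comparison come from the fit that called 25 and 17 genes when either DMSO-frozen library was left out. Among 12 other dual-specificity phosphatases and Sprouty relatives, 11 were tested. In osmolyte-frozen against DMSO-frozen cells DUSP18 alone passed and was lower, at 5.80 ± 0.591 CPM (n = 3, SD) against 7.67 ± 0.147 CPM (n = 2, SD), with edgeR adjusted p = 0.0323. In osmolyte-frozen against fresh cells DUSP7 and DUSP14 were higher, by 1.20-fold and 1.16-fold, and DUSP18 was lower by edgeR, and DESeq2 also called SPRY1 higher. In DMSO-frozen against fresh cells none of the 11 passed by edgeR or DESeq2, and 2 had unadjusted p under 0.05 by edgeR. In the DMSO comparison none passed by either tool, and 0 had unadjusted p under 0.05.

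The components that carry the signal from receptor to ERK were represented by 23 genes. In osmolyte-frozen against DMSO-frozen cells 1 of the 23 was higher and 11 were lower, with a median log2 difference of -0.23 against 0.04 over all genes. EGFR, the epidermal growth factor receptor, was 2.05-fold lower, averaging 88.9 ± 8.51 CPM (n = 3, SD) against 182 ± 11.3 CPM (n = 2, SD), with edgeR adjusted p = 2.27e-05. PDGFRA, a receptor of platelet-derived growth factor, was 1.80-fold lower, averaging 128 ± 11.9 CPM (n = 3, SD) against 231 ± 2.12 CPM (n = 2, SD), and the GTPase NRAS was 1.53-fold lower. KSR1, a scaffold that holds the kinases of the cascade together, was 1.21-fold higher. Against fresh cells 2 of the 23 were higher and 12 lower in osmolyte-frozen cells, and EGFR, PDGFRA and NRAS were lower by 2.00-fold, 1.94-fold and 1.57-fold. In DMSO-frozen against fresh cells only KSR1 passed, 1.36-fold higher by edgeR (adjusted p = 0.0120). With DMSO against without, 9 of the 23 were higher and 1 lower. There EGFR was 1.71-fold and BRAF, a RAF kinase, 1.40-fold higher, and KSR1 was 1.19-fold lower.

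Of 22 genes of the JNK, p38 and ERK5 branches, 2 were higher and 7 lower in osmolyte-frozen against DMSO-frozen cells. MAP3K1, a kinase upstream of JNK, was higher by 0.58 on the log2 scale, at 27.3 ± 5.61 CPM (n = 3, SD) against 18.2 ± 1.06 CPM (n = 2, SD), and MAP2K6, a kinase that activates p38, was 2.05-fold lower, averaging 2.32 ± 0.182 CPM (n = 3, SD) against 4.75 ± 0.534 CPM (n = 2, SD). MAPK14, which encodes p38 alpha, was 1.27-fold lower. Against fresh cells 2 of the 22 were higher and 9 lower in osmolyte-frozen cells, and MAP3K1 was 2.38-fold higher. None of the 22 passed by edgeR in DMSO-frozen against fresh cells, where 3 had unadjusted p under 0.05 and DESeq2 called 1, MAP3K1. With DMSO against without, 4 of the 22 were higher by edgeR and 0 lower, where 2 lower ones had unadjusted p under 0.05 and DESeq2 called 0 lower.

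Among 17 effectors, kinases and transcription factors acted on by MAP kinases, 2 were higher and 7 lower in osmolyte-frozen against DMSO-frozen cells. ETS2, an ETS family factor, was 1.68-fold lower and ELK3, another, 1.55-fold lower, whereas SRF, serum response factor, was 1.27-fold higher. Against fresh cells 1 of the 17 was higher and 8 lower in osmolyte-frozen cells. None passed by edgeR or DESeq2 in DMSO-frozen against fresh cells, and 3 had unadjusted p under 0.05 by edgeR. With DMSO against without, 5 were higher and 2 lower. The AP-1 subunit JUN fell by 0.93 on the log2 scale with DMSO, at 233 ± 26.7 CPM (n = 3, SD) with DMSO against 444 ± 58.7 CPM (n = 5, SD) without, with edgeR adjusted p = 0.00112.

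Transcriptional targets of ERK other than the DUSP and Sprouty genes, 17 in all, were counted next. In osmolyte-frozen against DMSO-frozen cells 3 were lower and none higher by edgeR, where 2 higher ones had unadjusted p under 0.05 and DESeq2 called 1 higher, IER3. The chromatin protein HMGA2 was 1.58-fold lower. Against fresh cells 2 were higher and 5 lower in osmolyte-frozen cells, and the ETS factors ETV4 and ETV5 were higher by 1.71-fold and 1.36-fold while SPHK1, sphingosine kinase 1, and PHLDA1 were lower by 1.89-fold and 1.76-fold. In DMSO-frozen against fresh cells none passed by edgeR, where 4 had unadjusted p under 0.05 and DESeq2 called 2 lower, PHLDA1 and SPHK1. With DMSO against without, 1 was higher and 2 lower: IER3, an immediate early gene, was 1.99-fold lower, averaging 172 ± 15.4 CPM (n = 3, SD) with DMSO against 340 ± 84.5 CPM (n = 5, SD) without, and MYC was 1.72-fold lower. By edgeR the adjusted p was 0.0165 for IER3 and 0.00923 for MYC. DESeq2 called 1 higher, HMGA2, and 4 lower, FOS, MYC, IER3 and LIF. By edgeR 5 lower ones had unadjusted p under 0.05.

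Of 19 other inhibitors of receptor and RAS signalling 18 were tested, with 3 higher and 3 lower in osmolyte-frozen against DMSO-frozen cells, and 4 higher and 4 lower against fresh cells. Set against fresh cells, 2 were higher in DMSO-frozen cells, and 0 were lower by edgeR or DESeq2, where 2 lower ones had unadjusted p under 0.05 by edgeR. LRIG1, a membrane protein that lowers receptor levels, differed between all 3 groups, at 185 ± 9.89 CPM (n = 3, SD) in osmolyte-frozen, 114 ± 8.29 CPM (n = 2, SD) in DMSO-frozen and 60.7 ± 5.31 CPM (n = 3, SD) in fresh cells. It was 1.61-fold higher in osmolyte-frozen than in DMSO-frozen cells (edgeR adjusted p = 2.42e-05) and 1.88-fold higher in DMSO-frozen cells than in fresh ones (edgeR adjusted p = 8.66e-06). CBL, a ubiquitin ligase of receptors, was 1.53-fold lower and PEA15, which keeps ERK in the cytoplasm, 1.20-fold higher in osmolyte-frozen than in DMSO-frozen cells. IL17RD, an antagonist of fibroblast growth factor signalling, was 1.47-fold higher in DMSO-frozen cells than in fresh ones. With DMSO against without, 3 of the 18 were higher and 1 lower, with NF1, the gene of neurofibromin, 1.27-fold higher and LRIG1 1.40-fold lower. DESeq2 called 3 higher and 3 lower, the lower ones being ERRFI1, LRIG1 and SOCS3. By edgeR 4 lower and 4 higher ones had unadjusted p under 0.05.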

How the data were processed

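RNA of H9-iMSC cells was sequenced in 8 libraries. The submitters' processing notes name CASAVA, TopHat, HTSeq and build hg19. The sources used here do not give annotation or strand setting, so reads of a gene and of an antisense partner could not be told apart. Per its header, the deposited table pairs a count with an RPKM value for every gene and library. The authors deposited raw whole-number counts, used here unscaled. All are even (0 odd values), for which no source gives a reason, so intervals for pairs were computed on the count divided by 2. The RPKM values, computed by the authors per length, were used for mean levels and for the library total behind them. Of 49 identifiers listed repeatedly, 41 with identical counts were kept once and 8 were kept apart, which left 23354 genes. No 2 libraries agreed within sampling noise (chi-square per degree of freedom 6.84 to 78.1).

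Groups came from the sample titles. Tests used edgeR 4.0.16 in R 4.3.3 (TMM scaling, filterByExpr by state, robust glmQLFit, glmQLFTest, Benjamini-Hochberg adjustment over 15564 genes at 0.05), in 1 fit of 3 groups, a fit of state and DMSO (5 residual degrees of freedom each) and an interaction fit (4). SE is the absolute log2 fold change over the square root of F. CPM uses TMM-scaled library sizes. Ratios for the call in pairs used a prior count of 2. Reads without molecular identifiers are not independent, so intervals cover counting error only. Alternatives were DESeq2 1.42.0 as test and as scaling, library totals, upper quartile scaling, no filter, robust off, counts divided by 2, hold time, fewer groups and each library left out. Scripts were tested on simulated data. Named genes are the 10 members, up to 3 highest and 3 lowest called genes of each list, of which a selection is given, and the 5 genes most like DUSP1 and DUSP6. The members and lists were chosen with earlier results of these data known.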

Additional observations from a re-analysis of the deposited data

Results flagged for a closer look

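The difference of DUSP6 between libraries with and without DMSO was smaller in frozen than in fresh cells, by an interaction test of that difference added after the data were seen. The interaction was 1.71 on the log2 scale (SE 0.38, edgeR adjusted p = 0.0489), and over its alternatives the adjusted p ranged between 2.02e-05 and 0.201. Frozen cells with DMSO had 8.28 and 7.69 CPM, against 14.0, 21.5 and 15.4 CPM in frozen cells without DMSO. Fresh cells with DMSO had 3.68 CPM, against 30.3 and 20.8 CPM in fresh cells without. The lowest value is a single library, and the alternatives in which the call was lost included library totals, upper quartile scaling and the omission of either DMSO-frozen library. At 1 h with DMSO, frozen cells had 2.09-fold more DUSP6 than fresh cells (95% interval 1.60 to 2.75, counting error only).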

How the results depend on the processing

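No paired analysis was possible because the labels carry no replicate numbers. The fit of only the groups compared was not run for DMSO. Where a group was left with 1 library, that library was assumed to vary like the others.

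In osmolyte-frozen against DMSO-frozen cells 2 of the 10 genes passed, and 5 with only those groups fitted, where 5082 genes passed in all. With hold time as a term 1 of the 10 passed, and the count of all genes is not given here. Leaving out a library gave 2136 (without DMSO-frozen 0 h) to 5254 genes, against 4684, and 1 to 3 of the 10. In osmolyte-frozen against fresh cells, leaving out a library gave 5001 to 6080 genes, against 6236, and 2 to 4 of the 10, against 4. In DMSO-frozen against fresh cells DESeq2 called 496 genes, against 291, and 1 of the 10, as did robust estimation off, against 0. Leaving out a library there gave 91 to 311 genes, the fewest being 91 and 99 without DMSO-frozen 1 h or 0 h, and 0 to 2 of the 10. For DMSO, leaving out a library gave 17 to 4648 genes, against 2527, and 0 to 5 of the 10, against 4.

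Directions changed for the log2 differences below, none of which had passed with all libraries. In osmolyte-frozen against DMSO-frozen cells DUSP2 was -0.020 without a filter, -0.00020 with DESeq2 and -0.16 with hold time, and SPRY4 was -0.0057 without a filter. In osmolyte-frozen against fresh cells, upper quartile scaling gave 0.0088 for DUSP10 and 0.028 for SPRY2, and hold time 0.00042 for SPRY2. Leaving out a library gave a range of -0.23 to 0.15 for DUSP2 and -0.044 to 0.11 for SPRY4 in osmolyte-frozen against DMSO-frozen cells, and -0.073 to 0.13 for SPRY4 in DMSO-frozen against fresh cells. In osmolyte-frozen against fresh cells it gave -0.12 to 1.05 for DUSP1, -0.81 to 0.24 for DUSP5, -0.59 to 0.47 for DUSP6, -0.19 to 0.098 for DUSP10, -0.26 to 0.22 for SPRY2 and -0.049 to 0.15 for SPRY4. The causes were not tested. The precision of DUSP2 and DUSP10 was limited by their low counts.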

Other observations

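SPRY1, a relative of SPRY2 that was chosen here after its values were seen, did not share the SPRY2 pattern. It measured 42.5, 38.3 and 36.9 CPM in SMC, SGC and SGI, 29.7 and 29.1 CPM in DMSO-frozen cells at 0 h and 1 h, and 23.2, 15.5 and 32.4 CPM in fresh cells after 1 h with DMSO, after 1 h in medium and at 0 h. Fresh cells in medium, the library with the most SPRY2, DUSP5 and DUSP6, thus had the least SPRY1. In osmolyte-frozen against fresh cells its log2 difference was 0.72 (SE 0.25) and missed the threshold by edgeR (adjusted p = 0.0681), whereas DESeq2 called it higher.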
